A study of Homo sapiens with 3 samples.

Results

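The genes described here are the nuclear genes for subunits of the mitochondrial respiratory chain and of ATP synthase. They are taken by gene name: complex I (NDUFA, NDUFB, NDUFC, NDUFS or NDUFV and a number), complex II (SDHA to SDHD), complex III (UQCR and a suffix), the nuclear subunits of complex IV (COX4I1 to COX8C) and complex V, the ATP synthase (ATP5 and a suffix). The 84 genes reported here are among the 43317 gene names on the array. With a signal well above background on 1 or more arrays asked for, 80 of them were left among 22619 genes. COX4I2, COX7A1, COX7B2 and the pseudogene UQCRBP1 were not well above background on any array and had no measured level.

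The cells were HCT116, a human colorectal cancer cell line, and expression was measured on Agilent SurePrint G3 arrays with 1 colour and 1 array per group. SMARCA4-KD1 and SMARCA4-KD2 were transfected with 1 of 2 small interfering RNAs against SMARCA4, the ATPase of the SWI/SNF chromatin remodelling complex, and the NC cells with a scrambled control. The time between transfection and RNA extraction is not given in the sources used here. Titles and protocols name SMARCA4 but the treatment field names PRMT1, from which only the number of the knockdown was taken. SMARCA4 stood at 26.6% of its NC level with SMARCA4-KD1 and 28.8% with SMARCA4-KD2, whereas PRMT1 stood at 120% and 129%. Each value rests on a single array of each group, so no difference has a replicate check. The slide of the 2 knockdown arrays was not that of NC, so slide and knockdown cannot be told apart. Between 45.7% and 47.3% of probes were well above background on an array, and no spot of a subunit gene was saturated. Of 6 epithelial markers, 5 (EPCAM, CDH1, KRT8, KRT18 and CDX1) were well above background on all 3 arrays and VIL1 was on none. Of 6 markers of other cell types, PTPRC, COL1A1 and VWF were above background on all 3 arrays, at log2 levels from -3.21 to 1.01, and CD3E, COL3A1 and PECAM1 were on none. In a culture, fewer cells with a transcript and less of it per cell cannot be told apart.

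The respiratory chain passes electrons from NADH (complex I) and succinate (complex II) through ubiquinone to complex III, then through cytochrome c to complex IV, which reduces oxygen. Complexes I, III and IV pump protons across the inner mitochondrial membrane, and complex V lets them flow back to make ATP. Complexes I, III, IV and V hold subunits of both genomes, with a few catalytic subunits encoded by mitochondrial DNA, whereas complex II is encoded by the nucleus alone. The transcription factors NRF1, GABP and YY1 are known for binding the promoters of many of these nuclear genes.

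A level below is the log2 of the background-corrected intensity relative to the 75th percentile of that array, and a fold change is the difference of 2 such levels, knockdown minus NC. Levels of different probes are not on a common scale and are not compared. The extraction software's own error for a log2 fold change was 0.20 for a bright spot such as that of SDHB.

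The subunit genes as a whole stood slightly higher in both knockdowns. With SMARCA4-KD1 their median stood 0.16 above NC on the log2 scale, and with SMARCA4-KD2 0.17, beside -0.00 and 0.02 over all genes. Of the 80 genes, 62 were higher in both knockdowns by any amount, 9 were lower in both and 9 lay on opposite sides of NC, where 41.2% of all genes were higher in both. Both fold changes of a gene subtract the same single NC array, so an error in NC moves both the same way. Being higher or lower in both is therefore not 2 independent results, here and in the counts below. At the study's threshold of 1.5-fold (0.58 on the log2 scale) in both knockdowns, 1 of the 80 was higher, SDHB, beside 6.36% of all genes. None of the 80 was at least 1.5-fold lower in both, beside 7.99% of all genes.

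Genes with other bright probes also lay above NC. The subunit genes were bright, with 71 of 80 in the brightest 10% of all genes. The median log2 fold change of all genes moved with brightness, from -0.09 and -0.01 in the next-to-dimmest 10% to 0.11 and 0.12 in the brightest. In the dimmest 10% it was -0.15 and -0.14. These are the differences between the lowest levels to which dim values were raised on each array, and not a measured change. The other 2191 genes of the brightest 10% had medians of 0.11 and 0.12, and 59.0% of them were higher in both knockdowns, against 78.9% of the 71 subunit genes there. With the trend on brightness removed, the subunit medians were 0.06 and 0.04, and with quantile normalization they were 0.07 and 0.06. Under each of these settings 45 of the 80 subunit genes were higher in both knockdowns, beside 39.6% and 38.3% of all genes.

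**Figure D1:**
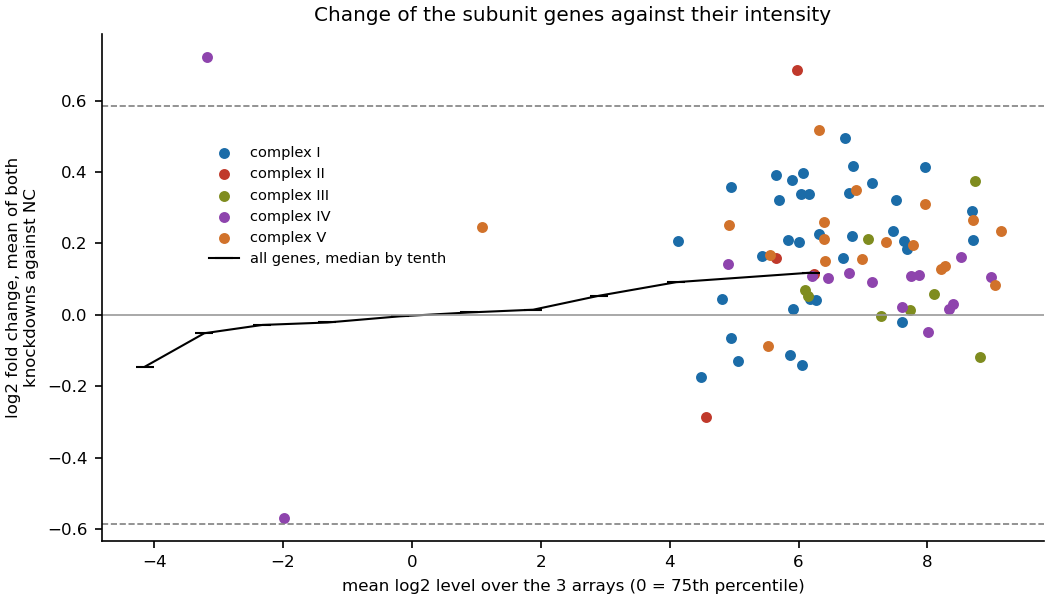
Log2 fold change of each of the 80 subunit genes (vertical axis, mean of both knockdowns against NC) against its mean log2 level over the 3 arrays (horizontal axis), coloured by complex, with dashed lines at 1.5-fold and a black line for all genes (in steps of 10% by brightness, the mean of the medians of both knockdowns). Most points lie at the bright end, where the black line is also above 0, and only SDHB and the dim COX6A2 lie above the upper dashed line.

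Across both knockdowns against NC, limma called no gene at an adjusted p of 0.05, for the subunits or for any other gene, and the lowest adjusted p was 0.073, which SDHB shared with other genes. At an unadjusted p of 0.05 it called 23 of the 80 subunit genes, 21 of them higher, beside 31.4% of all genes. The methods' t-test at its own threshold and 1.5-fold called 429 genes and no subunit gene. These p-values measure only the spread between the 2 knockdown arrays, since NC had 1 array. With genes required to be well above background on all arrays, limma called 5174 of 19503 genes, among them 16 of 79 subunit genes, all 16 higher.

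Complex I takes electrons from NADH and is the largest of the complexes, with 35 genes described. The median log2 fold changes were 0.21 (SMARCA4-KD1) and 0.25 (SMARCA4-KD2), and 27 of the 35 were higher in both knockdowns. These 27 were 77.1%, beside 41.2% of all genes and 59.0% of the 2191 other bright genes described above. With the trend on brightness removed, the median moved to 0.11 (mean of both). None of the 35 passed 1.5-fold in both.

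The 6 core subunits of complex I described here were all higher in both knockdowns, NDUFS7 by the least. NDUFS8, which carries iron-sulfur clusters, went from 5.80 in NC to 6.21 for SMARCA4-KD1 and 6.19 for SMARCA4-KD2. NDUFS3 went from 5.39 in NC to 5.81 and 5.74. In these 2 core genes the knockdown arrays lay close together and less than 1.5-fold above NC, at mean log2 fold changes of 0.40 and 0.39. Their limma SEs, 0.07 and 0.08, hold no spread of NC, and the extraction software's error was 0.20 for each. NDUFS1, NDUFV1 and NDUFV2, which carry the first cofactors on the path of electrons from NADH, had mean log2 fold changes of 0.21, 0.23 and 0.16. NDUFS7, which holds the last iron-sulfur cluster before ubiquinone, was near NC at 0.05 and 0.03, and lay on the other side of it under quantile normalization (mean -0.04), with the percentile over probes above background (-0.01) and with the trend on brightness removed (-0.07).

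Among the 29 accessory subunits of complex I, 21 were higher in both knockdowns and 4 lower. NDUFA3 was above 1.5-fold in SMARCA4-KD1 only, with log2 fold changes of 0.62 and 0.37. NDUFC1 (0.41 and 0.42) and, chosen here after their values were seen, NDUFA7 (0.53 and 0.31), NDUFS6 (0.48 and 0.27) and NDUFB10 (0.43 and 0.31) came next among them by their mean. These 4 accessory genes were all higher in both knockdowns and under 1.5-fold in each. At the other end, NDUFA12 was at -0.08 and -0.18, NDUFA5 at -0.03 and -0.11, and NDUFB4 at -0.03 and -0.01. NDUFC2 was at -0.10 and -0.12 by its brightest probe, but its other probe gave 0.87 and 0.40, and the mean over both probes turned its sign to 0.26. NDUFA10 also depended on the probe: the brightest gave 0.28 and 0.36, a dimmer one for the same transcript 0.35 and 0.25, and a probe for another transcript gave -0.57 and -0.38.

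Complex II oxidises succinate and links the chain to the citric acid cycle. Its 4 genes lay on both sides of NC, with SDHB higher and SDHD lower in both knockdowns, and a median of 0.09 and 0.18. SDHB encodes the iron-sulfur subunit. Its level was 5.52 in NC, 6.22 for SMARCA4-KD1 and 6.20 for SMARCA4-KD2. Both knockdowns were above NC and differed from each other by 0.02. This was 1.62-fold and 1.60-fold higher (log2 0.69 ± 0.07, limma SE, adjusted p = 0.073), and its mean was just under 1.5-fold with quantile normalization and with the trend on brightness removed, with a lowest value of 0.56.

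SDHD encodes a membrane anchor of complex II, and its brightest probe lies at chr11:111965866-111965925 (hg19, + strand). Its level was 4.76 in NC, 4.46 for SMARCA4-KD1 and 4.49 for SMARCA4-KD2, which puts both knockdowns below NC. The log2 fold changes were -0.30 and -0.27 (limma SE 0.07, adjusted p = 0.118), all 3 probes of the gene were negative in both knockdowns, and the sign held under every setting, from -0.39 to -0.21. SDHA, the flavoprotein that binds succinate, was near NC (0.06 and 0.17), and so was SDHC, the other anchor, by its brightest probe (0.13 and 0.19). Of the dimmer SDHC probes, 1 gave 0.87 and 0.67.

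Complex III passes electrons from ubiquinol to cytochrome c. The median of its 8 genes was 0.06 and 0.02, and the mean of both turned to -0.06 with quantile normalization and -0.06 with the trend on brightness removed. UQCRQ, a small accessory subunit measured at chr5:132203295-132203354 (hg19, + strand), stood apart from the others: its log2 level was 8.49 in NC, 8.84 for SMARCA4-KD1 and 8.90 for SMARCA4-KD2. It was above NC in each, by 1.27-fold and 1.33-fold. UQCRFS1, the Rieske iron-sulfur protein, was 1.16-fold higher in both knockdowns. UQCRH, the hinge protein that helps cytochrome c to bind, was lowest, at log2 -0.19 and -0.05. The core proteins UQCRC1 (0.23 and -0.09) and UQCRC2 (0.05 and 0.06) lay around NC.

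Complex IV reduces oxygen to water. The median of its 15 measured genes was 0.13 and 0.07 and moved to -0.01 (mean of both) with the trend on brightness removed. The common nuclear subunits lay near NC, among them COX4I1 at -0.00 and 0.04, COX5A at 0.12 and 0.09, COX5B at 0.13 and 0.08, and COX7C, the highest by the value reached in both knockdowns among those above background on all arrays, at 0.13 and 0.19. Of the 15, 13 lay between -0.09 and 0.23 in each knockdown. These 13 include COX6B2, also an isoform of another tissue, which was bright by its brightest probe (4.82 in NC) and lay at 0.23 and 0.05. The other 2, COX8C and COX6A2, are isoforms of other tissues as well, and both were dim. COX8C, known from testis, had a level of -1.60 in NC, -2.13 for SMARCA4-KD1 and -2.22 for SMARCA4-KD2. It was lower in both, at log2 -0.52 and -0.61, with only SMARCA4-KD2 past 1.5-fold. COX6A2, the isoform of heart and skeletal muscle, was well above background in both knockdowns and not in NC. Its level was -3.43 for SMARCA4-KD1 and -2.45 for SMARCA4-KD2, which was at least 1.18-fold and at least 2.31-fold above the lowest measurable level in NC. It entered the 80 genes only through the arrays where it was high.

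Complex V, the ATP synthase, was higher almost throughout: of 18 genes, 16 were higher in both knockdowns and none was lower in both. These 16 were 88.9%, beside 41.2% of all genes and 59.0% of the 2191 other bright genes described above. Among the 16 are ATP5L2, ATP5S and ATP5SL, which carry such a name without being standard subunits. The medians were 0.18 (SMARCA4-KD1) and 0.22 (SMARCA4-KD2). With the trend on brightness removed, the median moved to 0.09 (mean of both). ATP5G1, which encodes the c subunit of the proton-driven ring, was measured at chr17:46970798-46971772 (hg19, + strand, across an exon junction) and had a level of 5.98 in NC, 6.59 for SMARCA4-KD1 and 6.39 for SMARCA4-KD2. It was above NC in each, by 1.53-fold and 1.34-fold. The genes ATP5G2 and ATP5G3 make the same mature c subunit, and their mean log2 fold changes were 0.31 and 0.23. ATP5B, the catalytic beta subunit, was at 0.32 and 0.38, ATP5A1, the alpha subunit, at 0.16 and 0.23, and ATP5C1, the central stalk, at 0.26 and 0.24. ATP5E was at 0.07 and 0.10 by its brightest probe, but a dim probe for another transcript gave 1.52 and 0.72. The probes of the near-identical copy ATP5L2 (0.19 and 0.24) and of ATP5L (0.26 and 0.27) have a longest run of 14 of 60 bases in common. Whether either probe also detects the other transcript was not tested.

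**Figure D2:**
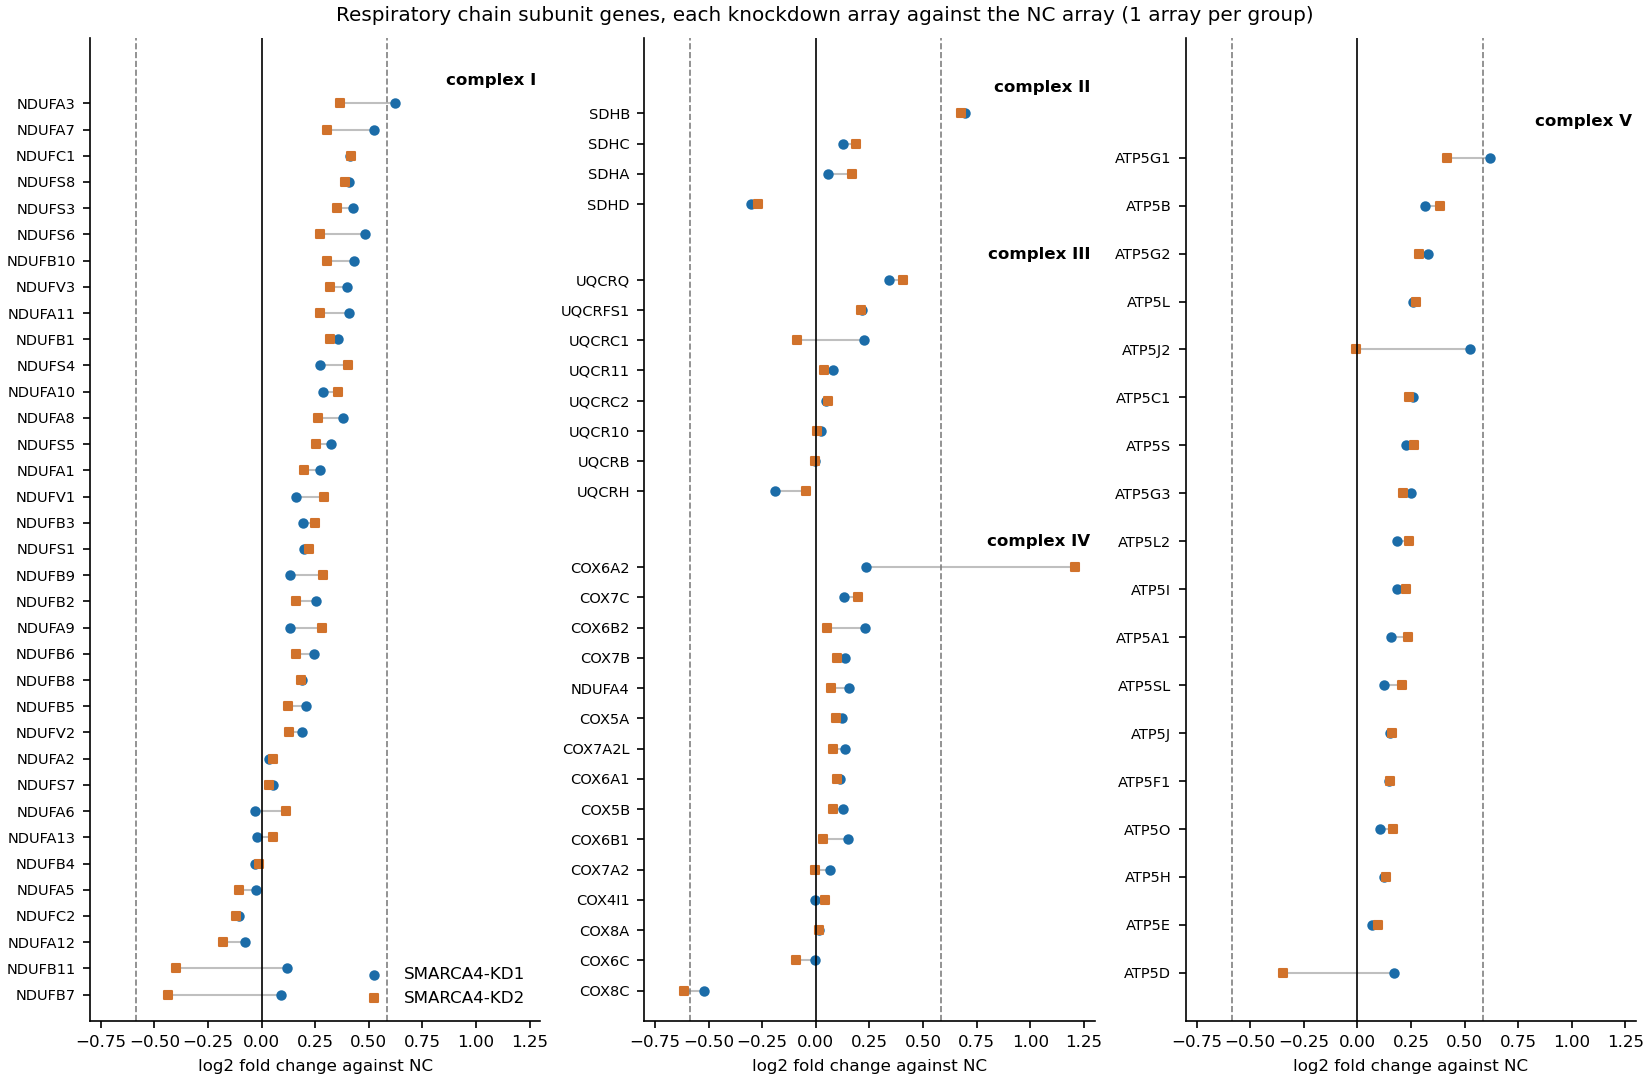
Log2 fold change of each subunit gene against NC (horizontal axis) in SMARCA4-KD1 (circles) and SMARCA4-KD2 (squares), by complex, with dashed lines at 1.5-fold and 1 array per group. Both points of SDHB lie beyond the upper line, SDHD and COX8C lie left of 0 with both points, and most genes of complexes I and V lie between 0 and 0.5.

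Both knockdowns gave close values for most subunit genes. The median absolute difference between them was 0.07 on the log2 scale for the 80 genes, 0.08 for the brightest 10% of all genes and 0.13 for all genes. In 5 subunit genes it was above 0.5, a group chosen after its values were seen. These were 6.25% of the 80, beside 8.67% of all genes and 1.19% of the brightest 10%. The last share is not like for like, as NDUFB7 and COX6A2 of these 5 were not in the brightest 10%. Only COX6A2 reached 1.5-fold. NDUFB7, an accessory subunit of complex I, had a level of 4.60 in NC, 4.69 for SMARCA4-KD1 and 4.16 for SMARCA4-KD2. NDUFB11, also accessory, had 6.15, 6.26 and 5.75 in the same order. ATP5D, the delta subunit of the ATP synthase, had 5.58, 5.75 and 5.23. In these 3 genes SMARCA4-KD1 lay slightly above NC and SMARCA4-KD2 below it, by -0.44, -0.40 and -0.35. ATP5J2, a subunit of the membrane part, was the other case: it was at 0.52 for SMARCA4-KD1 and -0.00 for SMARCA4-KD2, and its second probe gave 0.53 and 0.03.

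**Figure D3:**
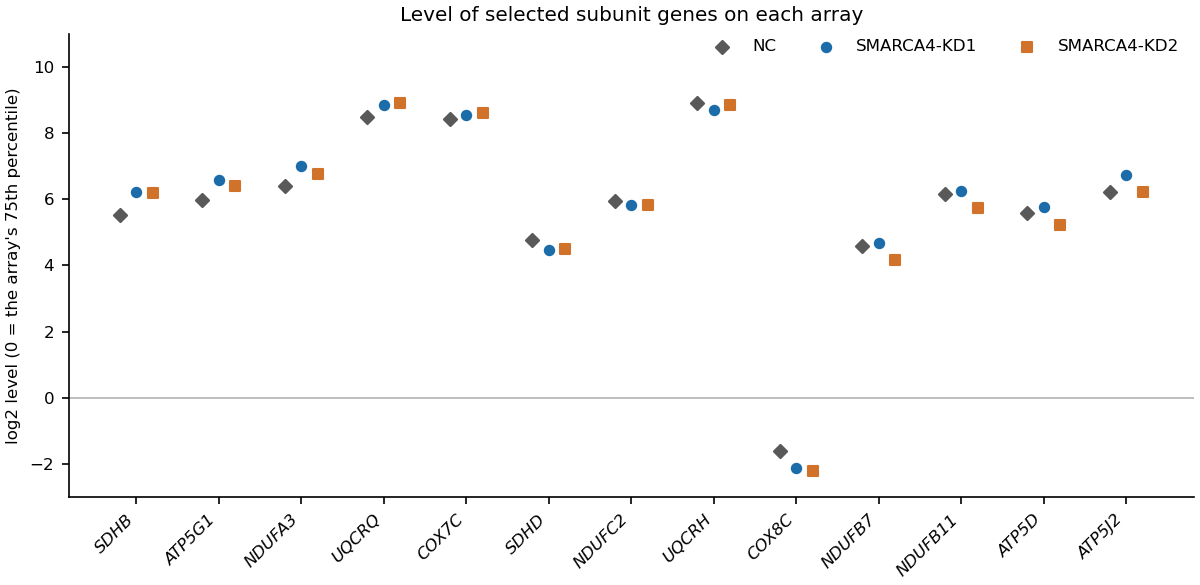
Log2 level (vertical axis, 0 is the 75th percentile of the array) of 13 subunit genes on the NC (diamonds), SMARCA4-KD1 (circles) and SMARCA4-KD2 (squares) arrays, to be compared within a gene only. From SDHB to COX7C both knockdowns lie above NC, from SDHD to COX8C below it, and in NDUFB7, NDUFB11, ATP5D and ATP5J2 the knockdowns lie apart from each other.

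Genes that act on the chain without being its structural subunits were compared from lists. Of 46 measured assembly factors, which build the complexes and insert their cofactors, 8 stood 1.5-fold or more above NC in both knockdowns and none that far below, beside 6.36% and 7.99% of all genes, and the median was 0.33 and 0.34. These 8 covered complexes I, II, III, IV and V. By any amount, 33 of the 46 were higher in both knockdowns and 10 were lower in both, where 41.2% of all genes were higher in both. COA7, a complex IV factor, stood at 1.00 and 0.84. For complex II, ACN9 (the current SDHAF3) stood at 0.92 and 0.79, and SDHAF2, which helps attach the flavin to SDHA, at 0.84 and 0.71. The complex II factors C6orf57 (the current SDHAF4), at -0.66 and -0.50, and SDHAF1, at -0.22 and -0.16, went the other way. LYRM7, which helps insert the Rieske protein into complex III, stood at 0.93 and 0.72, and ATPAF1, an assembly factor of the ATP synthase, at 0.84 and 0.80. ATPAF1 was measured by a dim probe and was at 0.38 with normexp background correction. SCO2, a copper chaperone of complex IV, stood at 0.74 and 0.69, LRPPRC, which stabilises mitochondrial mRNAs, at 0.71 and 0.77, and TIMMDC1, a complex I factor, at 0.59 and 0.60.

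The list of mobile electron carriers holds cytochrome c, its haem lyase and the synthesis of ubiquinone. Its 13 genes had medians of 0.37 and 0.44, and 2 passed 1.5-fold upward in both knockdowns, beside 6.36% of all genes: PDSS2 (1.18 and 1.04), a subunit of the enzyme that makes the ubiquinone side chain, and COQ4 (0.73 and 0.62), which acts in ubiquinone synthesis. Cytochrome c itself, CYCS, was at 0.76 and 0.49. COQ4 had a second probe near background, and the mean over both was 0.30.

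The genes of mitochondrial DNA, which encode the subunits that join the nuclear ones in complexes I, III, IV and V, stood nearer to NC. Of 11 measured genes, 4 were higher and 5 lower in both knockdowns, none past 1.5-fold in both, with medians of 0.01 and -0.08. ND1, the subunit of complex I at the entry of ubiquinone, was highest at 1.15 and 0.52, and ND5 was lowest at -0.30 and -0.39. The probe for COX1 lies at a position on chromosome 1 in the array's annotation, so its signal may not come from mitochondrial DNA alone. The other 10 lie on mitochondrial DNA. MT-ND4 and MT-CO3 were not analysed here.

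Of 19 regulators of these genes and of mitochondrial DNA, 4 stood 1.5-fold or more above NC in both knockdowns and none that far below, beside 6.36% and 7.99% of all genes, with medians of 0.34 and 0.29. C10orf2 (the helicase Twinkle) was at 0.97 and 0.99, POLRMT, the mitochondrial RNA polymerase, at 0.72 and 0.64, and TFB2M, its initiation factor, at 0.73 and 0.62. GABPB1, the beta subunit of GABP, was at 0.67 and 0.64 by its brightest probe and 0.24 and 0.17 by the other. The DNA-binding subunit GABPA was lower in both, at -0.48 and -0.40. NRF1 was at 0.28 and 0.07, and TFAM, which packages mitochondrial DNA, at -0.11 and -0.28. PPARGC1A was not well above background on any array.

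The 17 genes of the citric acid cycle and of pyruvate entry, which supply the electrons, were spread to both sides, with medians of 0.07 and -0.06. Of these, 3 (PDHA1, DLST and PC) were at least 1.5-fold lower in both, beside 7.99% of all genes. PDHA1, of pyruvate dehydrogenase, was at -1.45 and -1.14 by its bright probe, while a dim probe for another transcript gave 1.03 and 0.68. DLST, of 2-oxoglutarate dehydrogenase, was at -1.03 and -0.62, and PC, pyruvate carboxylase, at -0.89 and -0.59.

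**Figure D4:**
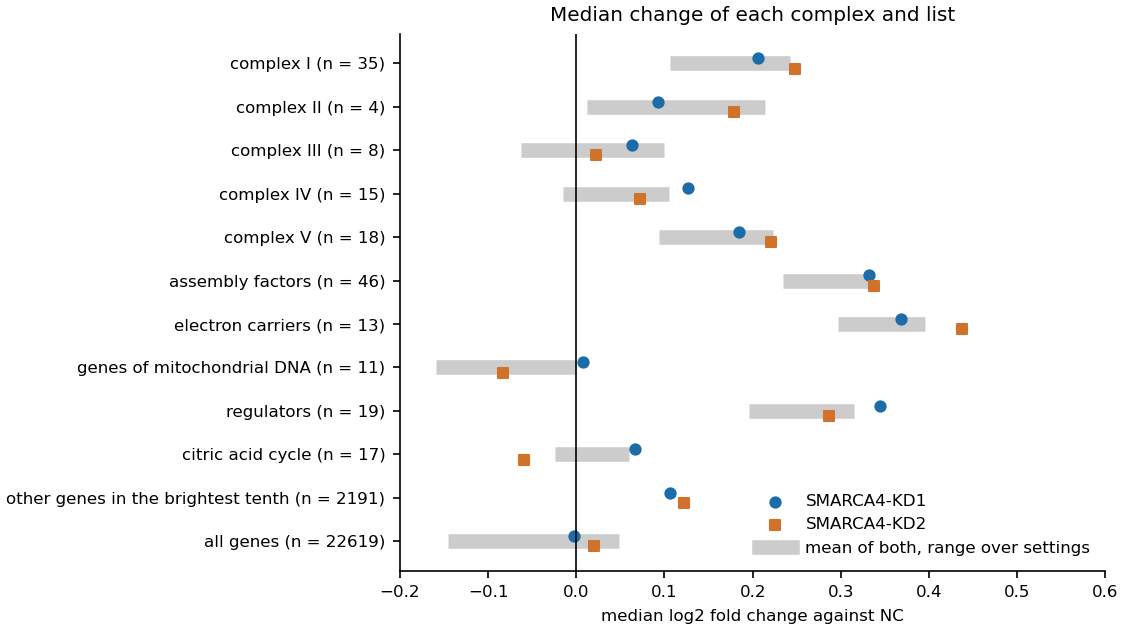
Median log2 fold change against NC (horizontal axis) of each complex and list in SMARCA4-KD1 (circles) and SMARCA4-KD2 (squares), with the range of the mean of both over the processing settings as a grey bar where it was computed. Complexes I, II and V, the assembly factors, the carriers and the regulators stay above 0 over the bar, while the bars of complexes III and IV, the citric acid cycle and all genes cross 0.

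Some promoters of the subunit genes hold letters of known motifs, which the choice by name did not use. RefSeq windows (GRCh38.p14) from 250 bases before to 50 bases after the start were matched for 67 of the 80 genes, with 80 windows in all, and 13 of the 67 were found under a current symbol that differs from the array's. The windows were searched on both strands for the letters GCATGCG (of the NRF1 motif), CCGGAAG (of the ETS motif that GABP binds), ATGGCGG (of the YY1 motif), CACGTG (the E-box) and TATAAA (the TATA box). Matches of different motifs overlapped in none of the 80 windows. The NRF1 letters were in 18.8% of them, beside 3.91% of all 35116 windows and 5.89% of the 2104 windows of the brightest 10% of genes. The YY1 letters were in 28.8%, beside 5.55% and 12.5%, and the ETS letters in 26.3%, beside 10.3% and 21.1%. The E-box was in 8.75%, beside 7.26% and 10.2%, and the TATA box in 8.75%, beside 11.5% and 7.46%. Each lay between its share of all windows and that of the brightest 10%.

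Genes with and without these letters had close medians, which were not tested. The median (mean of both knockdowns) was 0.13 for the 14 genes with the NRF1 letters and 0.16 for the 53 without, 0.12 for the 20 with the ETS letters and 0.17 for the 47 without, and 0.16 for the 21 with the YY1 letters and 0.16 for the 46 without. SDHB and SDHD of complex II, which stood on opposite sides of NC, both hold all 3 sets of letters. The stretches below end before the start and have the NRF1, ETS and YY1 letters of either strand in capitals. The third is from NDUFS3, a core gene of complex I with 2 ETS matches.
SDHB, GRCh38.p14 chr1:17054138-17054237, - strand: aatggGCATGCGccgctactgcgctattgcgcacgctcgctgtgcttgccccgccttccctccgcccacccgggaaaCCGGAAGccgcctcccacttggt
SDHD, GRCh38.p14 chr11:112086713-112086812, + strand: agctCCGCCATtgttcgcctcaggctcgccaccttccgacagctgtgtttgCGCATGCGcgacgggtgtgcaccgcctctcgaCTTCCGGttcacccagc
NDUFS3, GRCh38.p14 chr11:47578964-47579013, + strand: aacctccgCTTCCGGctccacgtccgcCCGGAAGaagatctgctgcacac
Counted from the start, with -1 as the last base before it, the NRF1 letters of SDHB begin at -200 and its ETS letters at -128, and those of SDHD begin at -109 and -77. SDHD also holds the YY1 letters on the opposite strand at -156, and all 3 windows hold the YY1 letters within the 50 bases after the start. A match is a description of these letters and not a measured site.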

How the data were processed

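Total RNA of HCT116 cells (SMARCA4-KD1, SMARCA4-KD2 and NC, 1 array each) was labelled with Cy3 and hybridised to 1-colour Agilent arrays (SurePrint G3, version 3). The deposited intensity values of single spots were made by the authors with Agilent Feature Extraction 10.7.1.1, per the labels, which subtracts background and detrends but does not normalize between arrays. The series-level table that the authors deposited holds these intensity values again. Over 57901 probes with a single spot, 1 probe differed between both sources by over 0.1%, and it was no subunit probe.

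Control spots and outlier spots were left out (30 of 58201 probes), and log2 intensity was taken minus the array's 75th percentile. Values too dim to be well above background were raised to the array's lowest level that was, where they lay under it. A probe had to be well above background on 1 or more arrays, and a gene took its brightest probe. Subunit genes had 115 probes, and 23 of the 84 names had more than 1. Values rest on 1 spot except for 5 genes with repeated spots. The number of arrays limits the precision.

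For a single knockdown, the 1.5-fold threshold of the methods was used without a test. Both knockdowns together were set against NC in limma 3.58.1 (R 4.3.3; intensity trend, Benjamini-Hochberg adjustment over all genes, 1 residual degree of freedom), with the methods' t-test as an alternative. Alternatives were quantile normalization, normexp (offset 50), a percentile from the probes well above background everywhere, other filters, no floor, the mean over probes, the series-level table and a lowess trend on intensity removed. Steps were tested on simulated data. Python 3.11.15, numpy 2.4.6, pandas 2.3.3, scipy 1.17.1, statsmodels 0.14.6 and matplotlib 3.10.9 were used. NDUFA4 was counted in complex IV. COX7A2L, ATP5S, ATP5SL, ATP5L2 and UQCRBP1 carry such a name without being standard subunits, and NDUFAB1 is not taken by the rule.

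The genes named are those that both knockdowns moved 1.5-fold one way, and 19 core subunits. So are the highest and lowest of each complex by the value reached in both knockdowns, among those above background on all arrays. A gene was also named if its probes lay at least 1.5-fold to opposite sides of NC, or its knockdowns differed by 1.5-fold. From the other lists come genes at least 1.5-fold apart in both, and CYCS, PPARGC1A, NRF1, GABPA and TFAM. Others were named after their values were seen. The members and lists were chosen with earlier results of these data known. Gene names and hg19 positions are those of the array files. TMEM70, MT-ND4 and MT-CO3 were not analysed here. The rule on names took 85 genes. Of these 1 is not reported here, nor is 1 gene of the citric acid cycle list, and neither is part of the counts and medians of their lists.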

Additional observations from a re-analysis of the deposited data

Results flagged for a closer look

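Among the values named above, 6 subunit genes, 2 lists and the median of all genes lay on opposite sides of NC in the knockdowns, with 1 array each and the difference not tested. The log2 fold change in SMARCA4-KD1 minus that in SMARCA4-KD2 was 0.31 for UQCRC1 and -0.046 for COX4I1. It was 0.527 for NDUFB7, 0.516 for NDUFB11, 0.517 for ATP5D and 0.529 for ATP5J2, which was at -0.00 in SMARCA4-KD2. For the medians it was 0.092 for the genes of mitochondrial DNA, 0.126 for the citric acid cycle and -0.023 for all genes.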

How the results depend on the processing

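With no replicate arrays, the medians have no error of their own and are given as ranges over the settings. The median of the subunit genes (mean of both knockdowns) was 0.16 and ranged from 0.04 to 0.19, that of complex I from 0.11 to 0.24, of complex IV from -0.01 to 0.11, of complex V from 0.09 to 0.22 and of the citric acid cycle from -0.02 to 0.06. Of 118 medians recomputed, 112 kept their sign and 6 did not, those of complexes III and IV and of the citric acid cycle. For single named genes 418 of 431 values kept their sign, and none of the others belonged to a gene past 1.5-fold in both. The number of subunit genes at least 1.5-fold higher in both was 1, became 0 with quantile normalization, with the intensity trend removed and at 2-fold, and was 3 with probes in place of genes, where probes of SDHC and ATP5E passed. The median of complex II was 0.14 and became 0.021 with quantile normalization, 0.085 with the percentile over probes well above background, 0.21 with the mean over probes and 0.012 with the intensity trend removed. That of complex III was 0.06 and became -0.060 with quantile normalization and -0.063 with the trend removed. That of the regulators was 0.32 and became 0.20 with the mean over probes and 0.22 with the trend removed. The genes limma called went from 0 to 5174 with the filter on all arrays, 2481 with quantile normalization, 3697 with normexp and 7111 at an unadjusted p of 0.05, and the methods' t-test called 429; after Benjamini-Hochberg adjustment that test called 0. The cause of these moves was not tested. Without a filter the median of all genes was -0.15, as genes at the floor on every array take the difference between the floors. No paired analysis was possible because each group had 1 array. Leaving out a replicate was not possible for the same reason. Dim genes such as COX6A2 and COX8C lie near background, where the signal limits what can be told.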

Other observations

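The array carried repeated spots for 5 subunit genes, with 8 to 10 usable spots of 1 probe on each array. COX7C, a small subunit of complex IV, had an SD over its spots, on the log2 scale, of 0.02 on the first knockdown's array, 0.03 on the second's and 0.03 for NC. NDUFS5 and NDUFS6, accessory subunits of complex I, had SDs from 0.01 to 0.04. UQCRC2 of complex III had SDs from 0.02 to 0.05, and ATP5SL, not a standard subunit, from 0.01 to 0.02. The log2 fold changes (first and second knockdown) were 0.33 and 0.25 for NDUFS5, 0.48 and 0.27 for NDUFS6, 0.13 and 0.19 for COX7C, 0.12 and 0.21 for ATP5SL, and 0.05 and 0.06 for UQCRC2. The SDs are those of single spots, whereas each level is a mean over 8 to 10 spots, so an SD is not the error of a fold change. The spread between spots covers neither labelling nor culture.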
